A study of Mus musculus with 6 samples.

Results

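Endothelial identity transcription factors are DNA-binding proteins that keep a cell endothelial and set its arterial, venous, capillary or flow-adapted state. Described here are 10 of their genes, which are the ETS factors Erg, Fli1 and Ets1, the SoxF factors Sox7, Sox17 and Sox18, the Krüppel-like factors Klf2 and Klf4, the zinc-finger factor Gata2, and Nr2f2, which encodes the orphan nuclear receptor COUP-TFII. They were chosen by name, taken by gene symbol from the count tables, and are 10 of 24063 symbols. All 10 were found and all 10 passed the filter on low counts that left 16598 genes to test. The filter asks for enough counts in as many samples as the smaller group has, and every member had at least 875 counts in every library.

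ETS factors bind the GGAA core found in the promoters and enhancers of nearly every endothelial gene, and ERG and FLI1 together hold vascular ECs in the endothelial state. SoxF proteins act beside them in arterial and lymphatic specification. KLF2 and KLF4 are induced by laminar shear stress and favour a quiescent, anti-thrombotic and anti-inflammatory endothelium, GATA2 occupies endothelial enhancers together with ETS factors, and COUP-TFII represses Notch signalling to allow venous and, later, lymphatic fate.

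The RNA came from C57BL6 male mice, with no transgene or mutation named for either group, which the labels give as 8 weeks old and the methods as older. One group had unilateral pneumonectomy (PNX) of the left lung, after which the remaining lung grows, and the other a sham operation, the thoracotomy without PNX. Lung ECs were taken 7 days after surgery with magnetic beads that bind CD31, a surface protein of ECs that platelets and some leukocytes also carry, and each of the 3 libraries per group pooled 2 mice. Replicates 1 and 2 of both groups are marked in the labels as re-used from an earlier record (earlier deposit), replicate 3 is not (later deposit). Within a group replicates 1 and 2 differed by little more than counting error, with a chi-square per degree of freedom of 1.75 in sham and 1.57 in PNX against 67.9 to 86.4 for pairs with replicate 3. They were therefore summed and counted as 1 sample, so that n = 2 per group. Total counts were 65763553 to 81282871 in the libraries of the earlier deposit and 29526989 to 33374216 in those of the later one.

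Markers of the labelled cell type were present, and all 16 endothelial surface and junction genes listed passed the filter on low counts. Their summed level was 13012 to 16096 CPM (counts-per-million, scaled by TMM) in sham and 11489 to 13069 in PNX libraries. These sums do not measure how pure the ECs were. Markers of other cells were present too and differed between groups. Summed over their lists, 5 alveolar type 2 genes stood at 4832 to 5385 CPM in sham and 1853 to 3133 in PNX libraries. The sums of 3 club airway genes were 2372 to 4308 and 1113 to 1169, and those of 4 alveolar type 1 genes 1715 to 4392 and 640 to 3248, which overlap. Those of 7 fibroblast genes were 1079 to 1275 and 3419 to 4874, and of 7 macrophage genes 321 to 690 and 838 to 1085. Apart from these, 6 cell division genes, which mark no cell type and may be of ECs too, stood at 61.3 to 112 and 545 to 825. None of these markers was at 0 in all sham libraries. In bulk RNA, fewer cells of a type and less RNA per cell cannot be told apart, and the part of these other cells in the results for the 10 factors was not tested.

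Levels can be compared between genes only per length, here as TPM (transcripts-per-million) of the transcript with the most counts. Klf2 was the most abundant of the 10 in sham, at 445 ± 89.9 TPM (SD, n = 2), followed by Klf4 at 394 ± 63.1 and Ets1 at 166 ± 6.24; Klf2 and Klf4 differed by less than their spread, and Ets1 and Sox18 by less than that of Sox18. Sox18 (143 ± 56.7), Gata2 (143 ± 27.0), Sox7 (106 ± 23.5) and Erg (103 ± 21.0) followed; Sox18 and Gata2, and Sox7 and Erg, differed by less than their spread, whereas Gata2 and Sox7 differed by more than either SD and less than the sum. Below them lay Sox17 (57.4 ± 8.90), Fli1 (25.9 ± 5.44) and Nr2f2 (18.5 ± 5.30), of which Fli1 and Nr2f2 also differed by less than the sum of their spreads. In PNX, Klf4 (329 ± 34.5) and Klf2 (312 ± 0.259) changed places, as did Sox18 (149 ± 74.2) with Ets1 (143 ± 2.49) and Erg (87.4 ± 11.3) with Sox7 (86.7 ± 18.7), in each case by less than the spread of the pair. Of the 3 ETS factors described, Ets1 and not Erg was thus the most abundant; other ETS genes were not compared per length. Sox17 has 5 transcripts in the data, Ets1 and Nr2f2 have 2 each, and those of a gene carried similar counts. A sum over transcripts would raise Sox17 to 294 ± 46.3, Ets1 to 337 ± 12.8 and Nr2f2 to 36.1 ± 10.7 TPM in sham. That puts Nr2f2 above Fli1, and Sox17 above Sox18, Gata2, Sox7 and Erg. In PNX the sum for Sox17 (325 ± 58.2) lay above Klf2 by less than its spread. The place of Sox17 thus depends on how transcripts are counted.

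**Figure D1:**
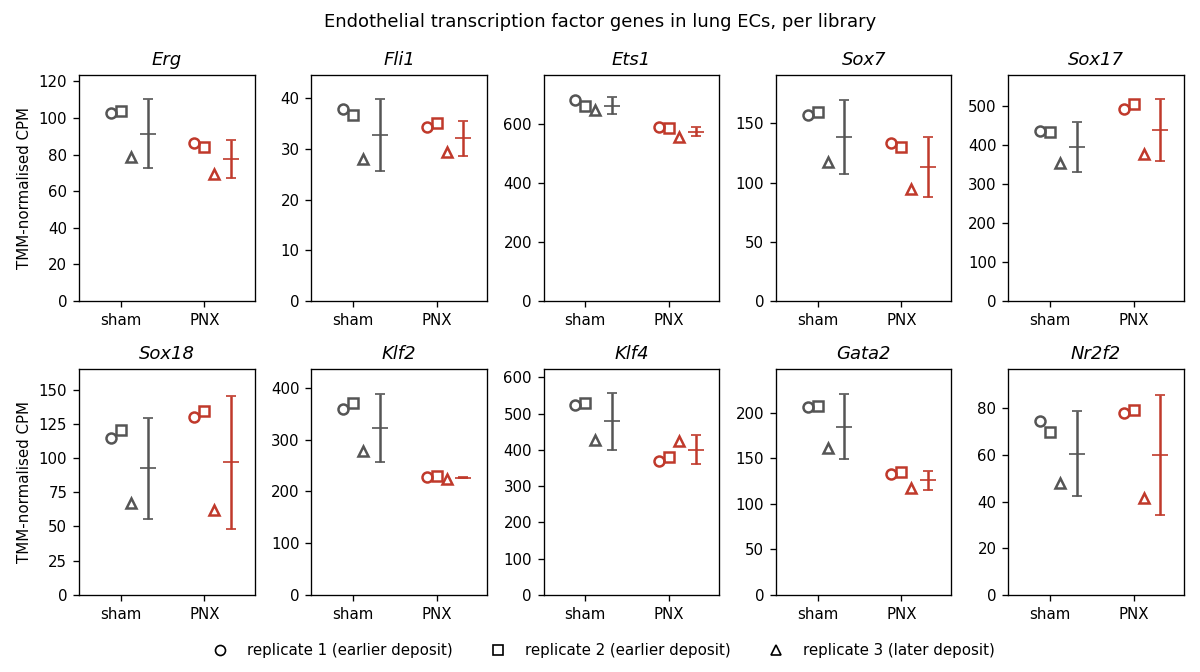
TMM-normalised CPM (y axis, from 0, one scale per gene) of the 10 transcription factor genes in sham (grey) and PNX (red) libraries, with circles, squares and triangles for replicates 1, 2 and 3 and bars for the mean ± SD of n = 2 samples. The PNX points of Ets1, Klf2, Klf4 and Gata2 all lie below the sham points, for Klf4 only by 424.7 against 426.9 CPM, and those of the other 6 genes overlap with sham.

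Gata2 had the largest log2 fold change of the 10 genes in the fits of the 4 samples with and without the block, whereas with replicates 1 and 2 alone Klf2 had (-0.67 against -0.63), and without PNX replicate 3 Klf2 and Sox18 had (-0.50 and 0.50 against -0.47). It encodes the GATA factor of ECs, which mast cells, megakaryocytes and haematopoietic progenitors also use, and lies at chr6:88193891-88207032 on the plus strand (GRCm38). Its level was 206.7, 207.8 and 160.8 CPM in sham replicates 1 to 3 and 133.0, 135.0 and 116.9 CPM in PNX replicates 1 to 3. Every PNX library was below every sham library. The mean was 185 ± 35.7 CPM in sham and 126 ± 10.7 CPM in PNX (SD, n = 2), a log2 fold change of -0.56 (SE 0.19). In edgeR's quasi-likelihood test without a block the adjusted p (Benjamini-Hochberg over all genes) was 0.338. With a replicate block for the deposit, which compares PNX with sham inside each deposit, the log2 fold change was -0.55 (SE 0.09, 95% interval -0.76 to -0.33) and the adjusted p was 0.00673. Gata2 was lower within both deposits, with a PNX to sham ratio of 0.635 in the earlier (exact 95% interval 0.623 to 0.646, counting error only) and 0.741 in the later (0.710 to 0.774).

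Klf2, the flow-induced factor that raises Nos3 and thrombomodulin, followed. It lies at chr8:72319033-72321656 on the plus strand, and stood at 359.0, 370.7 and 278.0 CPM in the sham and 227.7, 229.8 and 223.5 CPM in the PNX libraries. The groups did not overlap, and the PNX libraries of the earlier and later deposits lay close together while the sham libraries did not. The log2 fold change was -0.51 (SE 0.19) without the block (adjusted p = 0.386, edgeR) and -0.49 (SE 0.12, 95% interval -0.77 to -0.22) with it (adjusted p = 0.0245). The ratio was 0.616 (0.608 to 0.625) in the earlier deposit and 0.820 (0.794 to 0.846) in the later one, so the same direction was found in both but at unequal size.

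Klf4, the second Krüppel-like factor of the set, which shares targets with Klf2 and is also used by epithelial cells (chr4:55527143-55532466, minus strand), did not follow it in the later deposit. Its levels were 524.4, 530.5 and 426.9 CPM in the sham libraries and 368.7, 381.5 and 424.7 CPM in the PNX libraries. The ratio was 0.698 (0.690 to 0.705) in the earlier deposit and 1.01 (0.990 to 1.04) in the later. The log2 fold change of -0.26 (SE 0.19) without the block and -0.25 (SE 0.14, 95% interval -0.58 to 0.08) with it did not pass, with adjusted p = 0.676 and 0.245 in edgeR. When replicates 1 and 2 were summed and rescaled as 4 samples, its groups overlapped (423.1 CPM in the lower sham and 429.2 in the higher PNX sample).

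The promoters of Klf2, Gata2 and Klf4 are shown because these genes hold the 3 largest log2 ratios among the 10 in the earlier deposit. Each is the 250 bases upstream of a RefSeq start site (GRCm38.p6), 5′ to 3′ on the gene's own strand, at chr8:72318812-72319061 (+) for Klf2, chr6:88193641-88193890 (+) and chr6:88198414-88198663 (+) for the distal and proximal starts of Gata2, and chr4:55532476-55532725 (-) for Klf4. The last bases of the Klf2 window lie inside the gene as GENCODE draws it, and the proximal Gata2 window lies inside the Gata2 gene. Capitals mark 3 motifs searched on both strands (so that the reverse complements are in capitals too), the ETS core GGAAG, the GC box GGGCGG, to which SP and KLF proteins bind, and the KLF element CACCC.
Klf2: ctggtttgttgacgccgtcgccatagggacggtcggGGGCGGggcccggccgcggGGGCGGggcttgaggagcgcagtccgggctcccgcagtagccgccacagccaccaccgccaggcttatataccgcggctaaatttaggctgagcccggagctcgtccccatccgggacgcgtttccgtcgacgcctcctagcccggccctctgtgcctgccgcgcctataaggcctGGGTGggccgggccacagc
Gata2 distal start: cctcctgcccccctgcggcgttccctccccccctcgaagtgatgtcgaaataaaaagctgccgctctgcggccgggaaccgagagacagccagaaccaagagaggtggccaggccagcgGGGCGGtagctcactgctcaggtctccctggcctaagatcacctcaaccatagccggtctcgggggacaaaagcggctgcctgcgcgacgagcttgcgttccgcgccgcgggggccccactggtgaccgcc
Gata2 proximal start: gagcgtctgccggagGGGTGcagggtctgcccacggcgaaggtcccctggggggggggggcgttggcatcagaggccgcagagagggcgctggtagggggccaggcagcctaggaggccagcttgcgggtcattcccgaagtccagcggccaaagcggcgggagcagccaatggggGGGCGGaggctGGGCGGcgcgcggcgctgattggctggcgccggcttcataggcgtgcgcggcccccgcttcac
Klf4: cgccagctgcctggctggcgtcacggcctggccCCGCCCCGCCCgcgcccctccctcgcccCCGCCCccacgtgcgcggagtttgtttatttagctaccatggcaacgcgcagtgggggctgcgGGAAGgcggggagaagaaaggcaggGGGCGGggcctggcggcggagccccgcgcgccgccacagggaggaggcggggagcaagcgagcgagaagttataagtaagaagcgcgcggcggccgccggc
GGGCGG stood 2 times in the Klf2 window, 1 and 2 times in those of Gata2 and 4 times in that of Klf4, against 32.7% of all windows with at least 1. GGAAG stood in the Klf4 window, 126 to 122 bases upstream, and in none of the windows printed for Klf2 and Gata2, against 64.1% of all 32851 windows. CACCC stood once in the Klf2 window, 19 to 15 bases upstream, and in that of the proximal Gata2 start, against 52% of all windows. Erg and Nr2f2 also had windows, and Fli1, Ets1, Sox7, Sox17 and Sox18 had none in the table used. A match is a run of letters and not a measured binding site.

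Among the ETS factors, Erg, the factor with the most endothelial-restricted expression of the family (chr16:95359169-95586593, minus strand), read 102.6, 104.1 and 78.6 CPM for sham and 86.3, 84.3 and 69.3 CPM for PNX libraries. The groups overlapped, because sham replicate 3 was below PNX replicates 1 and 2. Erg was lower within both deposits, with ratios of 0.811 (0.792 to 0.831) and 0.899 (0.848 to 0.952), but the log2 fold change of -0.23 (SE 0.08, 95% interval -0.43 to -0.03) did not pass with the replicate block (adjusted p = 0.0924, edgeR), nor without it (adjusted p = 0.733).

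Ets1, which ECs share with lymphocytes (chr9:32636221-32757820, plus strand), was the steadiest of the 10 between deposits in sham, at 683.7, 663.2 and 648.5 CPM, and read 589.4, 585.7 and 558.0 CPM in PNX. All PNX libraries were below all sham libraries, and the ratios of 0.855 (0.844 to 0.866) and 0.878 (0.853 to 0.903) were close to each other. The log2 fold change of -0.21 (SE 0.10 with the block) did not pass, with adjusted p = 0.189 with the block and 0.666 without in edgeR. Summed over 6 T cell genes the CPM was 74.8 to 147 in sham and 52.3 to 98.8 in PNX libraries, and over 5 B cell genes 84.4 to 100.3 and 46.8 to 51.4; the part of lymphocytes in the Ets1 and Klf2 values was not tested.

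Fli1, the close paralogue of Erg that blood cells also express (chr9:32422204-32542861, minus strand), read 37.8, 36.7 and 28.0 CPM in the sham libraries and 34.3, 35.1 and 29.3 CPM in the PNX libraries. The groups overlapped and the deposits went opposite ways, with ratios of 0.913 (0.879 to 0.949) and 1.07 (0.972 to 1.17). The log2 fold change with the block was -0.03, with a 95% interval from -0.25 to 0.20 (adjusted p = 0.880, edgeR).

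The 3 SoxF genes differed in sign. Sox7 lies at chr14:63943673-63950732 (plus strand), Sox17 at chr1:4490931-4497354 (minus strand) and Sox18 at chr2:181669836-181671640 (minus strand). Sox7 read 157.4, 159.5 and 117.4 CPM for sham and 133.8, 130 and 94.6 CPM for PNX libraries, and Sox17 read 436.9, 432.7 and 353.5 CPM in the sham libraries and 491.4, 504.0 and 377.4 CPM in the PNX libraries. Both overlapped between the groups over all libraries, but inside each deposit Sox7 was lower and Sox17 higher after PNX. The ratio of Sox7 was 0.818 (0.803 to 0.834) in the earlier deposit and 0.821 (0.782 to 0.862) in the later one, and with the replicate block its log2 fold change of -0.29 (SE 0.08) had an adjusted p = 0.0418 in edgeR, against 0.727 without the block. The ratio of Sox17, the SoxF member most tied to arterial fate, was 1.12 (1.09 to 1.14) and 1.10 (1.04 to 1.16), but its log2 fold change of 0.14 (SE 0.09) had an adjusted p = 0.321 with the block and 0.856 without.

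Sox18, which acts upstream of Prox1 in lymphatic specification, read 114.4, 120.1 and 67.1 CPM for sham and 129.7, 134.0 and 61.7 CPM for PNX libraries. Here the deposits differed far more than the groups, the ratio being 1.10 (1.08 to 1.13) in the earlier and 0.938 (0.882 to 0.998) in the later deposit, and the log2 fold change with the block was 0.03 (95% interval -0.18 to 0.24, adjusted p = 0.849, edgeR).

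Nr2f2, the venous and lymphatic factor, which lung fibroblasts and other mesenchymal cells also express, behaved in the same way. It lies at chr7:70351944-70366735 on the minus strand. It read 74.7, 69.8 and 48.1 CPM in the sham libraries and 77.9, 79.2 and 41.5 CPM in the PNX libraries, with ratios of 1.08 (1.04 to 1.12) and 0.902 (0.813 to 1.00). The log2 fold change with the block was -0.04 (95% interval -0.26 to 0.18, adjusted p = 0.804, edgeR). Nr2f2 overlaps B130024G19Rik on the opposite strand, and the strand setting of the counting is not given in the sources used here, so reads of this pair may not be told apart. Fli1, Ets1 and Sox17 also overlap opposite-strand genes (Gm27201, Gm27240 and Gm37587). These are not among the symbols counted, and their reads may likewise not be told apart.

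**Figure D2:**
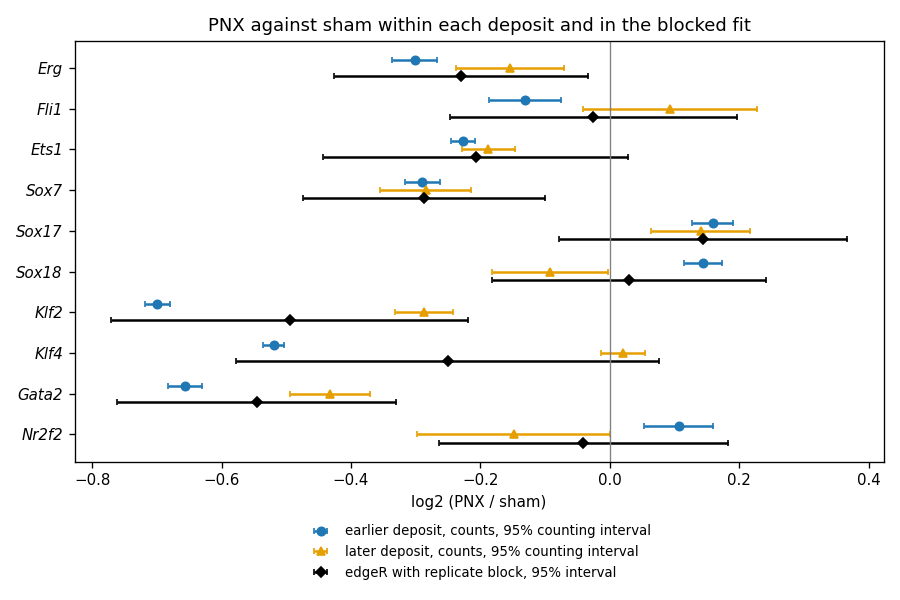
Log2 ratio of PNX to sham (x axis) for each of the 10 genes within the earlier deposit (blue circles) and the later deposit (orange triangles), with exact 95% intervals that cover counting error only, and in the edgeR fit with the replicate block (black diamonds, 95% intervals of the fit). Erg, Ets1, Sox7, Klf2 and Gata2 lie left of 0 in both deposits, Sox17 lies right of 0 in both, and the other 4 change side.

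Counted together, 0 of the 10 genes passed the call rule of the study (log2 fold change beyond 1 in either direction at an adjusted p under 0.01) in edgeR without a block, as did 0% of all genes. At an unadjusted p under 0.05 stood 2 members, Gata2 and Klf2, both lower, a direction in which 4.96% of all genes passed (2076 genes, or 12.5%, in either direction). No gene had an adjusted p under 0.05 in that fit (0%); limma-voom called 0 genes (0%) by the rule of the study and DESeq2 572 (3.45%), none of them a member. With the replicate block 0 members were called against 5.12% of all genes, and 3 members (Gata2, Klf2 and Sox7) had an adjusted p under 0.05 in edgeR, all lower, where 10.1% of all genes were lower and 11.5% higher by that rule, 21.6% in all. The same rule took 2 members with the 6 libraries as separate replicates (13.2% of all genes), 3 with DESeq2 on 6 libraries (22.1%), 7 with the deposit as a covariate in 6 libraries (51.6%) and 10 with replicates 1 and 2 alone (63.9%). In 4 of the 10 genes every PNX library lay below every sham library (17.9% of all genes), and in 0 above (18.8%). Within deposits 5 of 10 were lower in both (39.1% of all genes) and 1 higher in both (36.2%). The median log2 fold change of the 10 genes was -0.22, beside -0.01 over all genes tested. On simulated counts with 200 genes altered by 1 on the log2 scale, the fit without a block found 0 of them at an adjusted p under 0.05. The blocked fit found 195, with 11 unaltered genes. With 199 genes altered by 2 they found 115 and 199. The simulation gave each gene the same deposit shift in both groups and all genes the same dispersion, so the blocked model held by construction. It cannot show how that fit does on the real counts. Its changes were also larger than that of any of the 10 genes in the 4 samples.

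Each factor was also set against the summed level of 16 endothelial surface and junction genes, a sum in which abundant genes such as Eng weigh most. The sum differed between PNX and sham by -0.30 on the log2 scale in the earlier deposit and -0.18 in the later. The median log2 fold change of the 16 genes was -0.17 in the 4 samples without the block. Per 1000 of those counts, Gata2 stood at 13.0, 12.9 and 12.4 in sham and 10.2, 10.3 and 10.2 in PNX libraries, and Klf2 at 22.5, 23.0 and 21.4 in sham and 17.5, 17.6 and 19.5 in PNX. Both were thus lower in all PNX libraries on this scale too. Sox17 stood at 27.4, 26.9 and 27.2 in sham and 37.7, 38.6 and 32.8 in PNX, and Fli1 at 2.37, 2.28 and 2.15 in sham and 2.63, 2.69 and 2.55 in PNX, and for these genes all PNX libraries were higher. Erg overlapped, at 6.04 to 6.47 in sham and 6.04 to 6.63 in PNX libraries, as did Ets1, Sox7, Sox18, Klf4 and Nr2f2. These relative levels are descriptions with no test, and their sign depends on the genes taken as denominator. The share of all genes that do not overlap on this scale was not computed. In CPM it was 17.9% lower and 18.8% higher, so that such a separation is common.

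**Figure D3:**
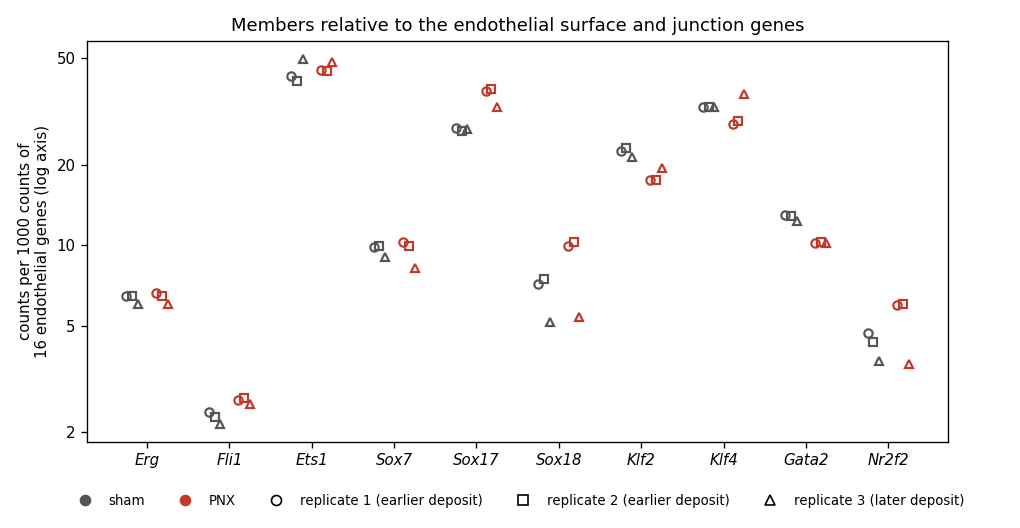
Counts of each of the 10 genes per 1000 counts of the 16 endothelial surface and junction genes (y axis, log scale) in sham (grey) and PNX (red) libraries, with circles, squares and triangles for replicates 1, 2 and 3. Gata2 and Klf2 lie lower in all PNX libraries and Sox17 and Fli1 higher, while the points of Erg are level between groups.

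Ratios between factors inside a library need no scaling between libraries. The TPM ratio of Gata2 to Erg was 1.38, 1.36 and 1.40 in sham and 1.05, 1.09 and 1.15 in PNX libraries. That of Sox17 to Sox7 was 0.522, 0.514 and 0.570 in sham and 0.688, 0.729 and 0.765 in PNX libraries. That of Klf2 to Klf4 was 1.15, 1.17 and 1.09 in sham and 1.04, 1.01 and 0.882 in PNX libraries. Of 12 such ratios computed, the groups did not overlap in these 3 nor in Klf2, Sox17 and Fli1 over Erg, and did in the other 6, which were Ets1, Sox7, Sox18, Klf4 and Nr2f2 over Erg and Sox18 over Sox7. No test was made, and the share of such ratios that do not overlap among other genes was not computed. On the CPM scale, 17.9% of all genes were lower and 18.8% higher in every PNX library.

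The deposits themselves separated the factors. All 10 were lower in the later deposit of sham, by 0.84 on the log2 scale for Sox18 and 0.62 for Nr2f2 at one end and 0.09 for Ets1 at the other. In PNX the difference was -1.07 for Sox18 and -0.90 for Nr2f2, but 0.20 for Klf4. The summed CPM of 8 leukocyte genes moved the other way, from 1438 and 1440 in sham replicates 2 and 1 to 3050 in sham replicate 3, and from 1570 and 1590 to 2724 in PNX. That of 4 alveolar type 1 genes was 4333, 4392 and 1715 in sham and 3201, 3248 and 640 in PNX replicates 1 to 3. The part of these cells in the differences between deposits was not tested.

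Over the 4 samples the factor with the profile most like that of Gata2, among 79 transcription factors compared by the Euclidean distance of centred log2 CPM, was Epas1 (0.0794), the hypoxia-inducible factor HIF-2α, and that of Klf2 was Gata2 (0.127). Sox7 and Erg both had Tal1 as nearest (0.0959 and 0.126), Fli1 had Gabpa (0.100), Ets1 had Gata3 (0.140), and Nr2f2 had Nr2f6 (0.159). Klf4 (Hhex, 0.182), Sox18 (Meox1, 0.199) and Sox17 (Fli1, 0.213) had more distant neighbours. Epas1, by far the most abundant of 20 other endothelial regulators, read 3559, 3579 and 2980 CPM for sham and 2327, 2383 and 2107 CPM for PNX libraries, with a log2 fold change of -0.55 (SE 0.13, adjusted p = 0.0250 in edgeR with the block).

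Relatives of the 10 factors were counted in the same blocked fit at an adjusted p under 0.05. By that rule 11.5% of all genes were higher and 10.1% lower, to be read beside each count of relatives. No test of a list was made. Of 21 other ETS factors tested, 2 were higher and 6 lower. The higher ones were Etv4 and the ETS repressor Erf (0.31). Etv4 stood under 0.33 CPM in sham and at 1.63 to 3.12 CPM in PNX libraries (log2 fold change 3.61, adjusted p = 0.000354 in edgeR). The lowest was Ehf, an epithelial ETS factor (-1.04), and Elk3, the most abundant, was at 0.01. Of 12 other KLF factors 0 were higher and 5 lower, which were Klf15 (-1.57), Klf9 (-0.98), Klf5 (-0.81), Klf7 (-0.43) and Klf3 (-0.37). Klf9 and Klf15 are glucocorticoid-induced genes. Klf6, the most abundant (-0.16), and Klf10, with the highest value (0.23), did not pass.

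Of 10 other SOX factors, 5 were higher and 1 lower, the higher ones being Sox8 (1.64), Sox9 (1.05), Sox12 (1.02), Sox6 (0.82) and Sox4 (0.48) and the lower one Sox11 (-0.41). Sox13, the most abundant (-0.17), and Sox2, with the lowest value (-0.93), did not pass. Sox8 and Sox9 stood under 1.5 CPM in every library. Of 7 other GATA and COUP factors, 3 were higher and 0 lower, namely Gata4 (1.55), Gata6 (0.71) and Gata5 (0.48), so that Gata2 and these 3 had opposite signs. Gata4 stood at only 0.544 to 2.11 CPM in sham and 1.74 to 5.80 CPM in PNX libraries. Nr2f6 (0.10), Nr2f1 (0.03), Gata3 (-0.15) and Gata1, with the lowest value (-0.16), did not pass. Gata3 and Gata1 thus shared the sign of Gata2. Nr2f6 and Gata6 had nearly the same mean CPM over the 4 samples, the highest of this list. Nr2f6 stood at 19.6 in sham and 21.2 in PNX, and Gata6 at 15.4 and 25.2. Gata4, Gata5 and Gata6 are used by mesothelial and other mesodermal cells, and the 4 mesothelial genes Msln, Wt1, Upk3b and Lrrn4 were called higher in the same fit, from 74.0 to 269.9 summed CPM in sham to 220.9 to 689.5 in PNX libraries; the part of such cells was not tested. Of the other endothelial regulators tested, 1 was higher (Bcl6b, 0.53) and 4 lower (Hey1, -0.76; Mecom, -0.64; Epas1, -0.55 and Foxo1, -0.43).

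**Figure D4:**
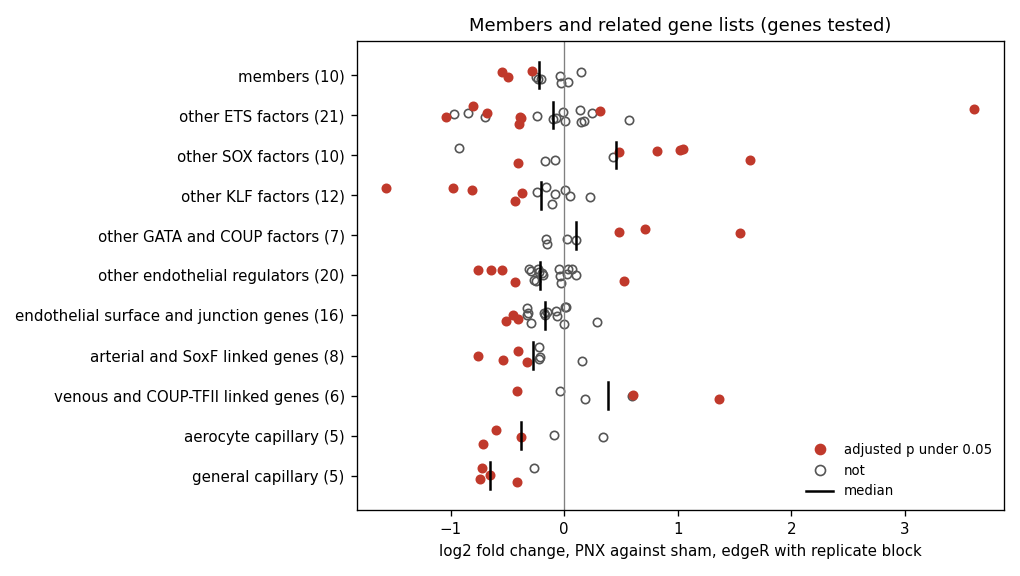
Log2 fold change of PNX against sham in the edgeR fit with the replicate block (x axis) for the 10 genes and for lists of related genes, each point 1 gene, filled red where the adjusted p is under 0.05, with a black line at the median of the list and the number of genes tested in brackets. The 10 factors lie between -0.55 and 0.14, inside the range of the related factors, of which Etv4 lies farthest to the right at 3.61.

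Genes that these factors are known to act on did not share a single direction. By the same rule 11.5% of all genes were higher and 10.1% lower. Of 5 genes that KLF2 and KLF4 raise, Nos3, endothelial nitric oxide synthase, was higher in the blocked fit (52.0, 53.1 and 35.3 CPM in sham, 63.0, 64.9 and 63.0 CPM in PNX; log2 fold change 0.55, adjusted p = 0.0314 in edgeR), and S1pr1, a sphingosine-1-phosphate receptor, was lower (-0.58, adjusted p = 0.0124), while Thbd (-0.42), Gja4 (0.38) and Aqp1 (-0.14) did not pass. Of the genes reported here that they lower, Edn1, the vasoconstrictor endothelin, was lower by a log2 fold change of -1.50 (198, 200 and 114 CPM in sham against 83.4, 85.0 and 33.3 CPM in PNX, adjusted p = 0.000245) and Angpt2 by -0.41, and Vcam1 (0.23), Sele (0.44) and F3 (-0.41) did not pass. In this fit Klf2 and Nos3 thus had opposite signs, and Klf2 shared its sign with S1pr1 and Edn1.

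Of 8 genes of arterial or SoxF-linked programmes 0 were higher and 4 lower, which were Hey1 (-0.76), the ephrin ligand Efnb2 (-0.53), Nrp1 (-0.40) and the Notch ligand Dll4 (-0.33). Notch4 (0.16), Notch1 (-0.22), Gja5 (-0.22) and Hey2 (-0.23) did not pass. Of 6 genes of venous or COUP-TFII-linked programmes 2 were higher, the venule chemokine receptor Ackr1 at 0.571 to 1.01 CPM in sham and 1.80 to 2.21 CPM in PNX libraries (1.37) and the semaphorin and VEGF-C receptor Nrp2 (0.61), and 1 was lower, the apelin receptor Aplnr (-0.42). Selp (0.60), Flt4 (0.18) and Ephb4 (-0.03) did not pass. Over all genes 11.5% were higher and 10.1% lower by this rule, and neither list was tested as a set.

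Capillary and lymphatic markers, counted by the same rule (11.5% of all genes higher and 10.1% lower), stood beside these values as follows. Of 5 general capillary genes 4 were lower, with Ptprb at -0.74, Gpihbp1 at -0.72, Plvap at -0.65 and Aplnr at -0.42 and with Kit not passing at -0.26. Of 5 aerocyte genes 3 were lower, with Fibin at -0.72, Ednrb at -0.60 and Apln at -0.38, and Car4 (0.34) and Tbx2 (-0.09) did not pass. Of 5 lymphatic genes tested, Prox1, the lymphatic master regulator downstream of Sox18 and Nr2f2, was higher (0.74, adjusted p = 0.0305 in edgeR), as was Pdpn (0.56), and Lyve1 was lower (-0.71), while Mmrn1 (0.20) and Reln (0.15) did not pass. Of the 16 endothelial surface and junction genes, Tek (-0.51), Eng (-0.45) and Flt1 (-0.40) were lower, and Pecam1, the protein of the bead selection, stood at 0.02, and Emcn was highest at 0.29 without passing.

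Gata2 was also set beside markers of the other cells that use it. For the counts given here, 11.5% of all genes were higher and 10.1% lower by the same rule. Of 7 mast cell genes 4 were higher in the blocked fit, led by Tpsb2 (5.38), and 1 lower (Ms4a2, -0.70), and the list summed to 40.3 to 89.3 CPM in sham and 44.3 to 89.3 CPM in PNX libraries. Most of that sum was Hdc, at 32.5 to 76.0 CPM in sham and 29.2 to 59.4 CPM in PNX libraries (-0.25, not passing). Of 6 platelet and megakaryocyte genes Pf4 (1.10) and Gp1bb (0.67) were higher and 0 lower, with sums of 36.4 to 51.7 and 51.1 to 55.9 CPM. The other 4 were Gp9 (0.11), Itga2b (0.04), Gp6 (-0.03) and Ppbp (-0.08), which did not pass. The part of mast cells and megakaryocytes in the Gata2 values was not tested. Immediate early genes, which dissociation of tissue induces as it does Klf2 and Klf4, summed to 6957 to 7199 CPM over 12 genes in sham and 6193 to 6338 CPM in PNX libraries, with Ier3 (-0.79) and Jun (-0.46) lower and 0 higher; the part of dissociation in the Klf2 and Klf4 values was not tested.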

How the data were processed

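Lung ECs of 3 sham and 3 PNX libraries were analysed. For these stranded libraries the authors aligned reads to mm10, with STAR named without a version in the submitters' processing notes, and counted on the Basepair platform. Neither the counting rule nor its strand setting nor the annotation is given in the sources used here. The authors deposited for 33068 transcripts the raw count, the FPKM and the TPM. The deposited FPKM entered nothing, and the deposited TPM served only for levels between genes. Counts of a symbol were summed; a read counted on several transcripts of a gene enters more than once, and intervals from counts therefore use the top transcript.

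The members and gene lists were chosen with earlier results of these data known. Replicates 1 and 2 were summed per group. The methods give each replicate as a pool of 2 mice, but replicates 1 and 2 differed by little more than counting error. With n = 2, p-values measure only the spread between these samples, with a variance that edgeR moderates across genes. The fit without a block left 2 residual degrees of freedom and the blocked fit 1. The blocked p-values thus measure how alike the PNX difference was in the 2 deposits, and rest largely on the variance shared across genes. edgeR 4.0.16 in R 4.3.3 was used (TMM, filterByExpr, glmQLFit, glmQLFTest, Benjamini-Hochberg over 16598 genes), with DESeq2 1.42.0 and limma 3.58.1 as alternatives. SE is the size of the log2 fold change over the square root of F. The replicate block is the deposit, in which the labels pair the groups; the later minus earlier difference correlated between sham and PNX across 16598 genes, which are not independent (Pearson's r = 0.669, Spearman's rho = 0.701). The fits were tested on simulated counts. Exact intervals are Clopper-Pearson at 95% and cover counting error only. All 10 members were named, and for each member its nearest factor profile. Of a list, as far as the text describes it, the most abundant, highest and lowest gene were named. Lists of at most 6 genes could be named whole, and lists given by their sum name none. For these lists, most abundant means the highest mean CPM over the 4 samples, which is not per length. Other genes were named after their values were seen, where a count was 5 or fewer. Positions are from GENCODE vM21 (GRCm38), and promoters are from RefSeq (GRCm38.p6, 5 of 10 members matched). For the macrophage list, Adgre1 was not analysed here. One gene of the lists is not reported here.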

Additional observations from a re-analysis of the deposited data

How the results depend on the processing

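The counts moved with the pairing by deposit, the tool and the treatment of the libraries. In edgeR without a block 0 of 16598 genes were called, and with the replicate block 849; limma-voom, other scalings and other filters on low counts gave 0 calls, and DESeq2 gave 572. With the 6 libraries as separate replicates 409 genes were called, 1104 with the deposit as a covariate, 921 in DESeq2, and 1203 with replicates 1 and 2 alone, where near-duplicates stand for replicates. Leaving out each library in turn gave 0 to 2 calls, 2 without PNX replicate 3. None of the 10 factors was called in any of these settings. An adjusted p under 0.05 was reached by 0 of them in 14 of 19 alternatives, by 3 with the replicate block, 2 with the 6 libraries (Gata2 and Klf2), 7 with the deposit as covariate, 3 in DESeq2 on 6 libraries and 10 with replicates 1 and 2 alone. In 10 further alternatives added to the replicate block after the data were seen, it was 3 in 9 of them and 2 under DESeq2, where Sox7 had an adjusted p of 0.106.

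The sign of Nr2f2 was unsettled, with a log2 fold change of -0.01 that became 0.000915 with library size alone, 0.022 with the top transcript, 0.045 with 6 libraries, 0.022 with the deposit as covariate, 0.040 in DESeq2 on 6 libraries and 0.12 with replicates 1 and 2 alone. With each library left out it ran from -0.27 (without sham replicate 3) to 0.37 (without PNX replicate 3), that of Sox18 from -0.28 to 0.50 and that of Fli1 from -0.22 to 0.072, at the same libraries. The ratio of Klf4 in the later deposit went from 0.02 to -0.0056 (log2) with library size alone. The cause was not tested. Replicate 3 of either group also moved other members by over 1.5 times, except Klf4 without PNX replicate 3, which moved by less. Without sham replicate 3 and without PNX replicate 3, Sox7 (-0.29 in all 4 samples) was at -0.49 and -0.076, Erg (-0.24) at -0.42 and -0.10, Sox17 (0.15) at 0.0055 and 0.32, and Klf4 (-0.26) at -0.40 and -0.36. Member counts were at least 875 per library.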
